A study of Oryza sativa Japonica Group with 15 samples.

Results

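Single-cell Hi-C maps of 4 shoot cells and 3 unicellular zygotes of rice were compared, cell by cell, for how much of the chromosomes their contacts covered and how the chromosomes met. The 7 cells were chosen by their sample labels, out of 15 single cells mapped in the series, and no measured value entered the choice. All came from the rice cultivar Dongjin, grown in a greenhouse or paddy field, with no treatment or mutation named. The shoot cells were isolated from seedlings 12 days after germination, and the zygotes from florets 6 to 8 hours after pollination. Each cell was fixed with formaldehyde and heated to open it, DpnII cut its DNA, the cut ends were ligated, and a REPLI-g kit amplified the genome before sequencing. The labels name no plant, seedling or floret, and the kind of shoot cell is not given. The groups therefore count as 1 sample each, and no test was run between them. Each cell's own value is printed, followed by group means with their SD. Non-overlap of the 4 shoot cells with the 3 zygotes is a description of these libraries. The design text of the series counts fewer shoot cells than the 4 listed, so results were also computed without shoot cells 3 and 4. A contact map holds no expression, so the cell labels could not be checked against marker genes.

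Hi-C joins the ends of DNA segments that lie close together in a nucleus, and a joined pair read by sequencing is a contact. In the arrangement named after Rabl, centromeres gather on one side of the nucleus and chromosome ends on the other, so positions at like distances along their arms meet across chromosomes. Such an arrangement is common in plants with large genomes and has been described in some rice cell types. The zygote holds a maternal and a paternal genome that have just come together, whereas a shoot cell descends from many rounds of division. In a single cultivar the parental copies carry the same sequence, so the maps do not tell them apart.

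Each fragment pair was counted once a cell, as 1 contact. Contacts were called trans between chromosomes, cis within one, far when trans or at least 20 kb apart, and near otherwise. Shoot cells 1 to 4 had 17058, 4898, 17291 and 2236 read pairs, which gave 3631, 1392, 3110 and 815 contacts. Zygotes 1 to 3 had 3559, 4319 and 3584 read pairs, which gave 948, 1274 and 785 contacts. Shoot cells 1 and 3 were thus the deepest of the 7. Far contacts were closer in number, with 448, 323, 431 and 243 in the shoot cells and 222, 401 and 332 in the zygotes. Between 57.3% and 78.2% of the far contacts of a shoot cell, and 64.0% to 70.2% of those of a zygote, rested on 1 read pair. Coverage measures were thinned to 222 far contacts a cell, the number of the shallowest cell. Read pairs carry no molecular identifiers, so the intervals below cover counting error only, and they treat contacts as independent. Up to 11 far contacts of a cell fell in 1 pair of 10 kb bins, so the intervals can be too narrow.

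The libraries shared contacts, and the zygotes shared more than the shoot cells did. Whether shared fragment pairs and recurrent bins come from repeated sequence, mis-mapped reads or carry-over between libraries was not tested. Of all far contacts in the 7 cells, 68 exact fragment pairs occurred in at least 2 cells. Among them 13 were held by 2 or more shoot cells and 35 by 2 or more zygotes, and 51 of the 68 were also held by an egg or a sperm cell. With every cell thinned to 222 far contacts, shoot cells shared a mean of 6.78 contacted fragments (range 1.89 to 13.3 over 6 pairs of cells), a shoot cell and a zygote shared 15.0 (2.32 to 30.2 over 12 pairs), and zygotes shared 44.1 (37.3 to 55.2 over 3 pairs). The lowest pair of zygotes lay above the highest pair of the other kinds. Without the recurrent 10 kb bins described below, and at 86 far contacts a cell, the means were 0.0867 among shoot cells, 0.0254 between a shoot cell and a zygote, and 0.843 among zygotes. At the same 86 contacts with all bins kept, the means were 1.50 among shoot cells, 3.79 between a shoot cell and a zygote, and 11.7 among zygotes. Recurrent bins are chosen because several cells hold them, so leaving them out removes shared fragments by construction. A drop in sharing was therefore fixed in advance.

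1 fragment pair was present in all 7 cells. It joined chr12:13386094-13387360 with chr12:20559791-20560326, which lie 7.17 Mb apart on the lower arm of chromosome 12. The pair was read 3, 5, 1 and 11 times in shoot cells 1 to 4, against 49, 17 and 11 times in zygotes 1 to 3, and it was also found in 2 of the 8 egg and sperm cells. A trans pair, chr1:39112452-39113760 with chr12:13382036-13383810, was read 0, 8, 0 and 4 times in the shoot cells and 1, 3 and 1 times in the zygotes. It was in 2 shoot cells, all 3 zygotes and no egg or sperm cell. Positions are on the build of the files, which is not named in the sources used here. The gene annotation at hand belongs to another assembly, so no gene is assigned to these places.

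Shared places gathered in few parts of the genome. A 10 kb bin was called recurrent when 5 or more of the 15 cells of the series had far contacts there, which was so for 95 of 37272 bins. Of these 95 bins, 30 lay on chromosome 12 and 16 on chromosome 1. Recurrent bins held 10.9, 26.8, 2.44 and 13.0% of far contact ends in shoot cells 1 to 4, against 44.8, 38.4 and 52.7% in zygotes 1 to 3. The shoot cells averaged 13.3% ± 10.1 (SD, n = 4) and the zygotes 45.3% ± 7.17 (SD, n = 3), and the ranges did not overlap. Because the 7 cells helped to choose these bins, the share was also taken over 97 bins where 3 or more of the 8 egg and sperm cells had far contacts, 83 of which were among the 95. Those bins held 10.2, 25.5, 1.74 and 11.5% of ends in the shoot cells, against 38.1, 36.0 and 50.9% in the zygotes. The groups thus did not overlap over bins chosen without any shoot cell or zygote. Several results below, but not all, are given with and without the recurrent bins.

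Near contacts, those within 20 kb, also fell in these places more often in zygotes. The egg and sperm bins held 1.70, 3.09, 0.635 and 5.59% of near contact ends in shoot cells 1 to 4, against 7.30, 7.62 and 17.9% in zygotes 1 to 3. In every cell this share was below that of the far ends.

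**Figure D1:**
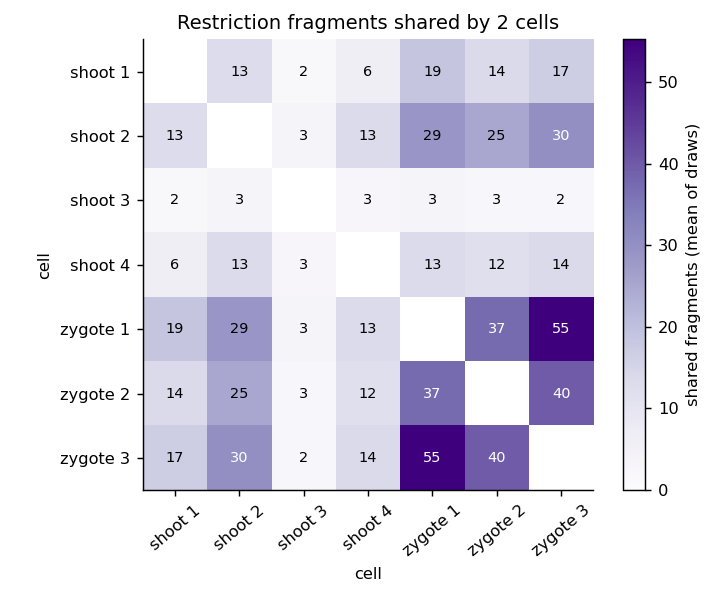
Contacted fragments shared by pairs of cells, with each cell thinned to 222 far contacts (mean over 200 draws). Rows and columns are the 4 shoot cells and the 3 zygotes, and each square gives the number shared. The 3 pairs of zygotes shared 37.3 to 55.2 fragments, and the 6 pairs of shoot cells 1.89 to 13.3.

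Recurrent bins no more than 10 bins apart were joined into 65 clusters. In 13 of them every shoot cell held a smaller share of far ends than every zygote, which is 20% of the clusters, and in 0% was every shoot cell higher. The zygotes helped to choose these bins. Of 68 clusters made in the same way from the egg and sperm bins, 12 were lower in every shoot cell (17.6%) and 0 were higher in every shoot cell (0%). The cluster with the widest gap, chr12:20470001-20670000 on the lower arm, held 0.893, 3.87, 1.16 and 2.26% of far ends in shoot cells 1 to 4, against 13.7, 7.98 and 8.13% in zygotes 1 to 3. The cluster at chr12:13340001-13420000, which lies 1.44 Mb from the centromere, held 3.57, 5.26, 0.464 and 3.09% in the shoot cells and 6.76, 7.86 and 7.53% in the zygotes. These 2 places hold the partner ends of the fragment pair found in all 7 cells. On chromosome 9, chr9:4670001-4730000 held 0.335, 0.929, 0.116 and 1.24% in the shoot cells and 2.25, 2.49 and 5.72% in the zygotes. On chromosome 4, chr4:32880001-32900000 held 0.112, 0.929, 0 and 0.206% in the shoot cells and 1.35, 3.74 and 2.56% in the zygotes. The cluster chr1:33510001-33590000 rested on single libraries, with 0.335, 3.25, 0.116 and 0.412% in the shoot cells and 2.48, 1.25 and 10.1% in the zygotes, so that shoot cell 2 lay above zygotes 1 and 2.

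Of the 10 kb bins, 5 held far contacts in all 7 cells. In chr12:13380001-13390000 the shoot cells had 5, 6, 1 and 8 far contacts and the zygotes 6, 20 and 9. Its neighbour chr12:13390001-13400000 had 1, 3, 1 and 2 in the shoot cells and 9, 12 and 8 in the zygotes. On the other side, chr12:13370001-13380000 had 9, 4, 1 and 2 in the shoot cells and 10, 2 and 5 in the zygotes. The bin to which the pair of all 7 cells leads, chr12:20560001-20570000, had 1, 1, 1 and 2 in the shoot cells and 1, 1 and 1 in the zygotes. On chromosome 1, chr1:33530001-33540000 had 2, 7, 1 and 2 in the shoot cells and 2, 6 and 5 in the zygotes. Of these bins chr12:13390001-13400000 alone had more far contacts in every zygote than in every shoot cell. Against these 5 bins, 1521 bins were held by a single cell.

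At equal contact number, contacts reached more of the genome in shoot cells. With 222 far contacts a cell, an end fell in 6.86, 5.51, 6.07 and 5.98% of 100 kb bins in shoot cells 1 to 4, against 3.99, 4.69 and 3.26% in zygotes 1 to 3. The mean of the shoot cells was 6.10% ± 0.562 (SD, n = 4) and that of the zygotes 3.98% ± 0.715 (SD, n = 3). Every shoot cell lay above every zygote, though not without thinning, nor when isolated contacts were left out. Without isolated contacts, at 78 far contacts a cell, breadth was 2.56, 1.97, 1.70 and 1.55% in the shoot cells and 1.35, 1.69 and 1.08% in the zygotes, so that shoot cell 4 lay below zygote 2. The Gini coefficient of ends over 1 Mb bins, which is 0 for even coverage, was 0.713, 0.794, 0.747 and 0.782 in the shoot cells, against 0.862, 0.836 and 0.891 in the zygotes, so every shoot cell was covered more evenly. Of the 379 bins of 1 Mb, 51.5 to 59.6% were empty in the shoot cells and 63.9 to 72.8% in the zygotes.

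Coverage was also taken outside the recurrent bins. Without them, the shoot cells kept 385, 223, 415 and 202 far contacts and the zygotes 86, 183 and 94. At 86 contacts a cell, 3.38, 2.96, 3.15 and 3.00% of 100 kb bins were reached in shoot cells 1 to 4, against 2.28, 2.76 and 1.85% in zygotes 1 to 3. With all bins kept and the same 86 contacts, the shoot cells had 3.43, 2.89, 3.19 and 3.10% and the zygotes 2.26, 2.52 and 1.98%. The differences of the means were 0.825 points without the recurrent bins and 0.901 points with them, and the groups did not overlap in either case. Near contacts gave a like order: at 453 near contacts a cell, ends fell in 9.18, 8.21, 7.72 and 6.50% of 100 kb bins in the shoot cells, against 5.45, 6.47 and 4.45% in the zygotes. Shoot cell 4 and zygote 2 nearly met. The Gini coefficient of near contacts overlapped between the groups, with 0.589, 0.644, 0.651 and 0.762 in the shoot cells and 0.795, 0.732 and 0.825 in the zygotes. The part of DNA recovery and amplification in the coverage differences was not tested.

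**Figure D2:**
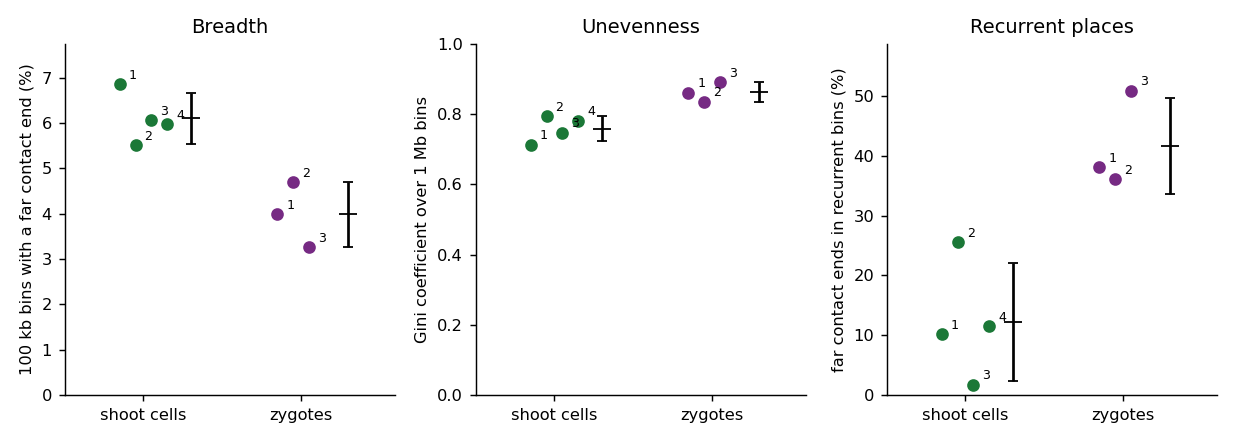
Breadth of coverage (percent of 100 kb bins with a far contact end), unevenness (Gini coefficient over 1 Mb bins), both at 222 far contacts a cell, and the percent of far contact ends in the 97 bins of 10 kb recurrent in egg and sperm cells. Points are single cells (4 shoot cells, 3 zygotes), and bars give mean and SD. In each panel the groups do not overlap, with breadth at 5.51% or more in shoot cells and 4.69% or less in zygotes.

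Coverage of an arm was taken as its share of far contact ends over its share of genome length, so that 1 means coverage in proportion to length. The upper arm runs from position 1 to the centromere. In 3 of the 24 arms (12.5%) every shoot cell lay above every zygote, and in 1 arm (4.17%) below. The lower arm of chromosome 12, which holds both chromosome 12 clusters described above, had a coverage of 2.05, 2.77, 1.11 and 1.62 in shoot cells 1 to 4, against 6.13, 4.41 and 4.17 in zygotes 1 to 3. Outside the recurrent bins its mean coverage was 0.588 in shoot cells and 0.746 in zygotes, and the cells overlapped. In near contacts the same arm had 1.13, 1.25, 0.891 and 0.543 in the shoot cells and 1.87, 1.53 and 3.43 in the zygotes.

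The upper arm of chromosome 5 had 1.14, 2.61, 1.71 and 0.247 in the shoot cells, against 0.203, 0.0375 and 0.0453 in the zygotes. Shoot cell 4 was close to zygote 1 there. It was the single arm whose groups stayed apart without the recurrent bins, and in near contacts its groups overlapped. On the upper arm of chromosome 8 the shoot cells had 0.967, 0.850, 0.670 and 0.713, against 0.390, 0.540 and 0.435 in the zygotes. The upper arm of chromosome 4 had 0.643, 1.01, 0.981 and 1.11 in the shoot cells, against 0.0865, 0.575 and 0.579 in the zygotes. The upper arms of chromosomes 4 and 8 overlapped between the groups once recurrent bins were left out. In near contacts their groups overlapped too, and the means had the opposite order. They were 0.653 in shoot cells and 1.195 in zygotes on chromosome 4, and 0.574 in shoot cells and 0.817 in zygotes on chromosome 8. Coverage is a share, so the arms are not independent of each other.

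**Figure D3:**
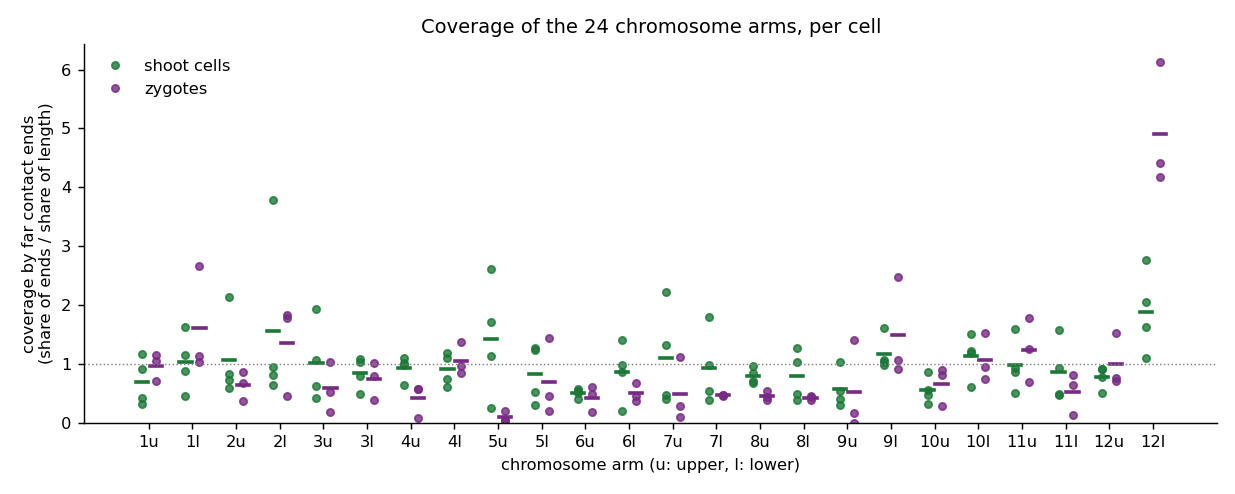
Coverage of the 24 chromosome arms (share of far contact ends over share of length) in the 4 shoot cells and the 3 zygotes, with 1 point a cell and a line at each group's mean. The lower arm of chromosome 12 had 1.11 to 2.77 in shoot cells and 4.17 to 6.13 in zygotes.

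In windows of 5 Mb, every shoot cell lay above every zygote in 4 of 76 windows (5.26%) and below in 5 (6.58%). The widest gap was again on chromosome 12, where chr12:20000001-25000000 had a coverage of 1.50, 3.81, 1.47 and 2.30 in the shoot cells, against 11.9, 6.88 and 6.62 in the zygotes. The window chr12:10000001-15000000, which holds the cluster near the centromere, had 3.08, 4.15, 0.519 and 2.76 in the shoot cells and 5.37, 6.23 and 6.06 in the zygotes. In chr4:30000001-35000000 the shoot cells had 0.499, 1.04, 1.73 and 0.460 and the zygotes 2.01, 3.25 and 2.47. All 3 of these windows hold a cluster of recurrent bins described above.

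Among the windows higher in shoot cells, chr5:10000001-15000000 had 1.58, 5.19, 0.259 and 0.767 in the shoot cells, against 0.168, 0.186 and 0 in the zygotes. Shoot cell 2 was the highest there. In chr2:30000001-35000000 the shoot cells had 1.41, 0.231, 1.12 and 3.53, against 0, 0 and 0.225 in the zygotes. The end of chromosome 11, chr11:25000001-29016404, had 0.414, 0.718, 3.98 and 1.53 in the shoot cells and 0.209, 0.347 and 0 in the zygotes. A different shoot cell led in each of these windows. Once recurrent bins were left out, 0 windows were higher in every shoot cell and 1 was lower.

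Along the arms, shoot cells had on average more contact ends near chromosome ends, while the order near centromeres turned with the size of the window. Within 2 Mb of a chromosome end lay 8.15, 10.7, 17.3 and 12.6% of far contact ends in shoot cells 1 to 4, against 6.98, 9.35 and 3.46% in zygotes 1 to 3, where the window covers 12.6% of the genome. Shoot cells averaged 12.2% ± 3.86 (SD, n = 4) and zygotes 6.60% ± 2.96 (SD, n = 3), and shoot cell 1 lay below zygote 2. Within 2 Mb of a centromere lay 17.5, 20.3, 10.4 and 13.6% of ends in the shoot cells, against 18.0, 18.5 and 25.2% in the zygotes, where the window covers 12.9% of the genome. The groups overlapped. Within 1 Mb of a centromere the means were 6.69% in shoot cells and 3.19% in zygotes, the opposite order. With the recurrent bins removed, the chromosome end shares averaged 14.15% in shoot cells and 11.58% in zygotes, a smaller gap. The centromere shares then averaged 12.0% in shoot cells and 11.9% in zygotes. Centromere positions are those known for the rice reference genome, and whether they match the files' build was not tested.

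When each arm was cut into 5 segments of equal length, the innermost segment held a mean of 20.4% of far ends in shoot cells (14.0 to 23.0%) and 26.9% in zygotes (21.5 to 29.7%). The outermost segment held 20.1% in shoot cells (14.1 to 28.1%) and 14.4% in zygotes (10.4 to 19.6%). Shoot cell 3 set both extremes of its group, with the fewest ends in the innermost segment and the most in the outermost. The shoot means were close to each other in these segments, and the cells of the groups overlapped in both. Without the recurrent bins the innermost segment averaged 17.9% in shoot cells and 22.5% in zygotes. The outermost then averaged 21.2% in shoot cells and 16.7% in zygotes.

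Arm alignment was measured as the Spearman correlation, over the trans contacts of a cell, of the relative positions of both ends along their arms. A positive value means that inner positions met inner ones and outer met outer. It was -0.0392, 0.238, 0.0627 and 0.109 in shoot cells 1 to 4, against -0.0474, -0.0453 and -0.243 in zygotes 1 to 3. Its mean was 0.0925 ± 0.115 (SD, n = 4) over the shoot cells and -0.112 ± 0.113 (SD, n = 3) over the zygotes. The groups did not overlap, but shoot cell 1 lay next to zygotes 1 and 2, and every value was small. When contacts were merged to 1 per pair of 10 kb bins, the shoot cells had -0.0473, 0.0877, 0.0561 and 0.112 and the zygotes 0.0115, -0.001 and -0.194, which overlap. Without the recurrent bins the zygotes had 0.0995, 0.0611 and -0.106, while the shoot cells had -0.0297, 0.253, 0.0628 and 0.0980, so the groups overlapped there too.

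Each arm was also cut into an inner, a middle and an outer segment of equal length. Of trans contacts, 33.2, 44.8, 37.8 and 40.8% joined like segments in shoot cells 1 to 4, against 35.0, 31.9 and 25.5% in zygotes 1 to 3. Over the number expected from coverage, these were 0.975, 1.36, 1.07 and 1.23 in the shoot cells and 1.11, 0.919 and 0.755 in the zygotes, with zygote 1 above shoot cells 1 and 3. Inner segments met inner segments at 1.12 times expectation in the summed shoot cells (95% Poisson interval 0.957 to 1.31) and 0.839 times in the summed zygotes (0.671 to 1.04). Outer segments met outer segments at 1.12 times in shoot cells (0.950 to 1.32) and 0.947 times in zygotes (0.673 to 1.29). All 4 of these intervals include 1.

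Contacts between pericentromeres of different chromosomes, each end lying 2 Mb or less from a centromere, were more frequent over expectation in the summed shoot cells than in the summed zygotes. The expectation keeps the number of trans ends of each chromosome and the share of them in the window. Observed counts were 12, 22, 4 and 4 in shoot cells 1 to 4, for 11.5, 9.69, 3.01 and 3.07 expected. In zygotes 1 to 3 they were 4, 5 and 12, for 5.85, 9.54 and 13.3 expected. The ratios were thus 1.04, 2.27, 1.33 and 1.30 in the shoot cells, against 0.684, 0.524 and 0.906 in the zygotes, with no overlap in this window. Summed counts gave 1.54 in shoot cells (95% Poisson interval 1.11 to 2.08) and 0.733 in zygotes (0.454 to 1.12). Shoot cell 2 gave more than every other shoot cell: without it the difference of these ratios was 0.405, and with all cells 0.808. Without the recurrent bins the summed ratios were 1.25 in shoot cells and 1.21 in zygotes. They were 2.06 in shoot cells and 1.59 in zygotes with a 1 Mb window, and 2.15 in shoot cells and 1.58 in zygotes with an expectation from length alone, so the zygotes were then above expectation too. With a 3 Mb window they were 1.12 in shoot cells and 0.811 in zygotes. The cells of the groups overlapped in these 4 settings and also without isolated contacts. They did not overlap with contacts merged to 1 per pair of 10 kb bins. The merged counts were 11, 15, 4 and 3 in the shoot cells and 4, 5 and 9 in the zygotes, with summed ratios of 1.57 and 0.826. The cluster at chr12:13340001-13420000 is among the recurrent places that lie in a pericentromere window.

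End to end contacts, each end lying 2 Mb or less from a chromosome end, were few. There were 9, 3, 12 and 4 in the shoot cells, for 2.43, 2.64, 11.8 and 2.23 expected. In the zygotes there were 2, 2 and 0, for 0.910, 2.41 and 0.198 expected. The summed ratio was 1.47 in shoot cells (0.977 to 2.12) and 1.14 in zygotes (0.310 to 2.92), and these intervals overlap. Shoot cell 1 stood highest at 3.71. Without zygote 2 the difference turned to -0.335, and without shoot cell 3 it was 1.06. The groups were apart with a 3 Mb window, at 2.11, 2.33, 0.906 and 2.12 in the shoot cells and 0.685, 0.905 and 0 in the zygotes, where shoot cell 3 and zygote 2 nearly met. They were also apart with an expectation from length alone, at 1.53, 0.765, 2.05 and 1.38 in the shoot cells and 0.703, 0.370 and 0 in the zygotes. That expectation ignores coverage, and the zygotes averaged fewer far ends near chromosome ends (6.60%, against 12.2% in shoot cells). Without isolated contacts the summed ratio was 1.48 in shoot cells and 0 in zygotes, but shoot cell 4 and zygote 3 then had no expected contact. Without the recurrent bins it was 1.36 in shoot cells and 0.973 in zygotes. With contacts merged to 1 per pair of 10 kb bins, the 9 contacts of shoot cell 1 became 4. The merged summed ratios were 1.465 in shoot cells and 1.403 in zygotes.

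Contacts from a pericentromere to a chromosome end numbered 13, 6, 15 and 3 in the shoot cells, for 11.5, 11.6, 12.2 and 5.61 expected. In the zygotes they numbered 5, 8 and 1, for 5.42, 12.6 and 4.73 expected. Summed, they came to 0.903 of expectation in shoot cells (0.636 to 1.24) and 0.616 in zygotes (0.337 to 1.03). These intervals overlap. Without the recurrent bins the ratios were 1.05 in shoot cells and 0.290 in zygotes, on 1, 1 and 0 contacts in zygotes 1 to 3.

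**Figure D4:**
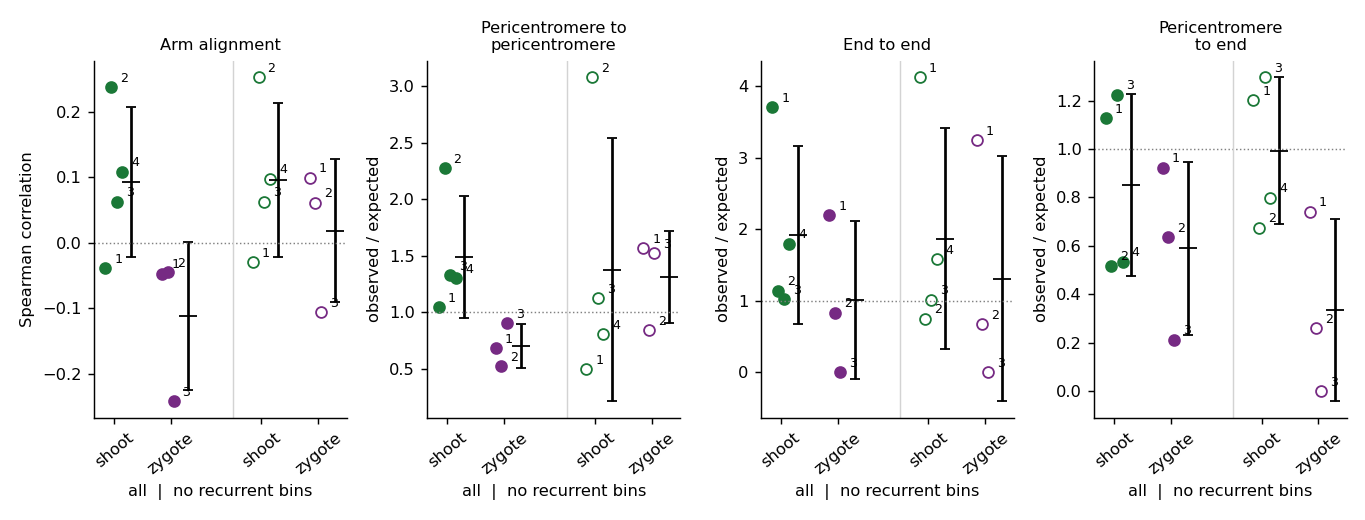
Arm alignment (Spearman correlation) and trans contacts between pericentromeres, between chromosome ends and from pericentromere to end (observed over expected), with all contacts (filled) and without recurrent bins (open). Points are single cells, shoot cells left of zygotes, and bars give the mean and SD of the cells' own values, which differ from ratios of summed counts. With all contacts the groups are apart for alignment and pericentromere contacts, and without recurrent bins they overlap in both.

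For pairs of chromosomes, observed trans contacts were set over those expected from the chromosomes' numbers of trans ends. Every shoot cell lay above every zygote in 1 of 66 pairs (1.52%), chromosomes 1 and 11. Their ratio was 0.899, 1.01, 0.951 and 7.41 in shoot cells 1 to 4, against 0.739, 0.600 and 0.879 in zygotes 1 to 3. The high value in shoot cell 4 rested on 4 contacts for 0.54 expected, and the other shoot cells lay next to zygote 3. Every shoot cell lay below every zygote in 1 pair (1.52%), chromosomes 2 and 11, with 0.202, 0.530, 0.956 and 0.290 in the shoot cells, against 2.12, 1.34 and 1.80 in the zygotes, on 30 contacts in all. With contacts merged to 1 per pair of 10 kb bins, the pair of chromosomes 2 and 11 was apart and that of 1 and 11 was not.

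The trans share of all contacts was 10.3, 17.8, 11.9 and 22.6% in shoot cells 1 to 4, against 19.0, 26.8 and 35.4% in zygotes 1 to 3. Shoot cell 4 lay above zygote 1. Without the recurrent bins the shares were 9.06, 13.4, 11.6 and 20.3% in the shoot cells and 8.61, 15.0 and 17.3% in the zygotes, with means of 13.6% in both groups. Among far contacts alone, 83.3, 76.8, 85.9 and 75.7% were trans in the shoot cells and 81.1, 85.3 and 83.7% in the zygotes. This share did not separate the groups in either setting. Beside it, read pairs less than 1 kb apart made up 69.5 to 76.1% of the pairs of a shoot cell and 61.1 to 68.8% of those of a zygote, and their part in the trans share was not tested.

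Within chromosomes, the separation of far cis contacts differed more among shoot cells than between the groups. Far cis contacts numbered 75, 75, 61 and 59 in shoot cells 1 to 4, with median separations of 0.0824, 0.862, 10.2 and 5.03 Mb. In zygotes 1 to 3 there were 42, 59 and 54, with medians of 0.981, 5.56 and 7.18 Mb. Contacts of 2 Mb or more made up 40, 40, 70.5 and 67.8% in the shoot cells and 45.2, 69.5 and 70.4% in the zygotes. Shoot cells 1 and 2 were thus shorter than every zygote, while shoot cell 3 had a higher median than every zygote and shoot cell 4 lay between zygotes 1 and 2. With contacts merged to 1 per pair of 10 kb bins, the medians of shoot cells 3 and 4 were 7.101 and 6.935 Mb. Both then lay between zygote 2 (5.459 Mb) and zygote 3 (7.184 Mb). Mean log10 separation in kb came to 3.02 ± 0.417 (SD, n = 4) for the shoot cells and 3.22 ± 0.202 (SD, n = 3) for the zygotes. With shoot cells 3 and 4 left out the difference was -0.554, against -0.199 with all 4, and the groups no longer overlapped. With far cis contacts taken from 100 kb and all cells kept, the difference had the opposite sign, at 0.0923.

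By class of separation, contacts of 20 to 200 kb made up 56, 42.7, 23.0 and 17.0% of far cis contacts in the shoot cells and 33.3, 23.7 and 24.1% in the zygotes. Those of 2 to 10 Mb made up 21.3, 24, 19.7 and 37.3% in the shoot cells and 23.8, 54.2 and 35.2% in the zygotes. Over 10 Mb the shares were 18.7, 16, 50.8 and 30.5% in the shoot cells and 21.4, 15.3 and 35.2% in the zygotes. Shoot cell 3 was the one cell with most of its far cis contacts over 10 Mb, and zygote 2 the one with most at 2 to 10 Mb. The groups overlapped in every class.

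**Figure D5:**
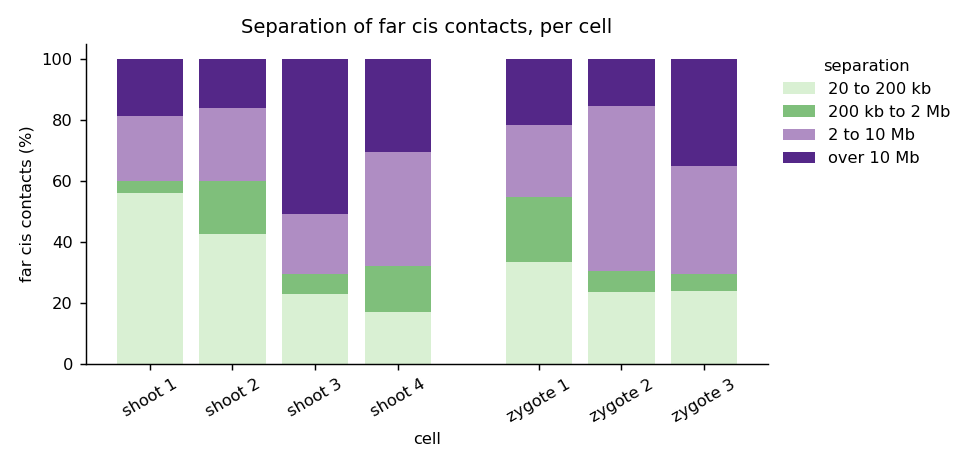
Far cis contacts of each cell by separation, as stacked percentages of the 42 to 75 far cis contacts of a cell, with shoot cells at the left and zygotes at the right. Contacts of 20 to 200 kb made up 56% in shoot cell 1 and 17.0% in shoot cell 4, a wider span than the 23.7 to 33.3% of the zygotes.

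Cis contacts of over 2 Mb crossed the centromere about as often in both groups. There were 12, 9, 24 and 17 such contacts in shoot cells 1 to 4, for 12.2, 13.2, 25.1 and 19.8 expected from placing the same separations at random along their chromosomes. Zygotes 1 to 3 had 9, 13 and 16, for 8.37, 17.0 and 16.9 expected. Summed, the ratio was 0.883 in shoot cells (95% Poisson interval 0.677 to 1.13) and 0.900 in zygotes (0.637 to 1.24). Both intervals include 1, and their width leaves room for differences that these counts cannot show.

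At equal contact number, fragments joined to several partners were more frequent in zygotes on average, but the group means were close before thinning. With each cell thinned to 785 contacts, 1.41, 4.10, 3.43 and 7.96% of contacted fragments had 3 or more partners in shoot cells 1 to 4, against 9.57, 7.25 and 18.7% in zygotes 1 to 3. Shoot cell 4 lay above zygote 2, and zygote 3 stood well above the others. Before thinning, the shares were 12.3, 8.27, 22.2 and 8.32% in the shoot cells and 11.95, 11.2 and 18.7% in the zygotes. The means were then 12.8% in shoot cells and 13.9% in zygotes, and shoot cell 3 was the highest of all cells. Zygote 3, with 785 contacts, lost none to thinning, while shoot cells 1 and 3 lost the most. The part of depth in the thinned values was not tested. In all, 4 of the 14 measures listed in the methods had groups that did not overlap in the main setting, namely arm alignment, pericentromere contacts, breadth and unevenness of coverage. Alignment and pericentromere contacts overlapped without the recurrent bins, and breadth overlapped without thinning or without isolated contacts. Breadth and unevenness describe the same thinned contacts.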

How the data were processed

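The deposited contact files list 1 read pair per line with the position, restriction fragment and strand of both ends, and the authors' files hold no normalised value. The sources used here do not give the aligner, the contact caller or the genome build. A file pairing chromosomes with chain letters, and a gene table that runs past the files' chromosomes on all 12, were not used here. Fragment pairs were counted once a cell and placed at fragment midpoints.

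The 14 measures were the trans share of all and of far contacts, the share of far cis contacts spanning 2 Mb or more, their mean log10 separation, centromere crossing, arm alignment, 3 kinds of pericentromere and end contact, breadth and unevenness of coverage, ends near centromeres and near chromosome ends, and fragments with 3 or more partners. Thinned values are means of 200 draws. Expected trans counts came from a quasi-independence fit of the chromosome pair table. Intervals are exact Poisson intervals at 95%. Arm alignment, the 3 kinds of pericentromere and end contact, centromere crossing and the expected chromosome pair counts were tested on simulated data. The other measures were not. Alternatives left out isolated contacts (those with no second contact whose ends both lie 1 Mb or less away), fragments with more than 4 partners, recurrent bins, shoot cells 3 and 4 or 1 cell in turn, merged contacts, changed the 2 Mb window or the 20 kb limit, took expected trans counts from length alone, or did not thin. Features named are the arms, the 3 highest and 3 lowest windows and chromosome pairs whose groups were apart, and the 5 bins of 10 kb held by the most cells. The clusters and shared fragment pairs were chosen after their values were seen. Cells, measures and lists were chosen with earlier results of these data known. Python 3.11.15, numpy 2.4.6, pandas 2.3.3 and scipy 1.17.1 were used.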

Additional observations from a re-analysis of the deposited data

How the results depend on the processing

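Of 218 values recomputed under alternatives, 187 moved by less than the spread between cells and 31 by more. Differences here are shoot minus zygote. Main differences were -2.97 points for the trans share of far contacts and -0.0171 for centromere crossing. They were 0.287 for pericentromere to end contacts and -5.09 points for ends near centromeres. Each of these turned sign in a setting below. Some others turned sign while moving by less than the spread between cells. With far cis contacts taken from 100 kb, the share at 2 Mb or more differed by 4.29 points, against -7.13 in the main setting. Mean log10 separation then differed by 0.0923, against -0.199. Without fragments of more than 4 partners end to end contacts differed by -0.293, against 0.332. Without isolated contacts the trans share of far contacts differed by -8.19 percentage points, centromere crossing by 0.214, alignment by 0.342, pericentromere to end contacts by -0.0920, breadth by 0.573 points and unevenness by -0.0459. Without fragments of more than 4 partners the trans share of far contacts differed by 1.62 points and breadth by 1.39. Without recurrent bins the trans share of all contacts differed by -0.0362 points, crossing by -0.203, alignment by 0.0779, pericentromere contacts by 0.0353, pericentromere to end contacts by 0.755, breadth by 0.825, unevenness by -0.0556 and ends near centromeres by 0.0975 points. Without the bins recurrent in eggs and sperm, an alternative chosen after seeing the data, these were -0.942 for the trans share, 0.0527 for alignment, 0.136 for pericentromere contacts, 0.774 for pericentromere to end contacts, 0.922 for breadth, -0.0609 for unevenness and 0.184 for ends near centromeres. With all bins kept but 86 far contacts a cell, also chosen after seeing the data, breadth differed by 0.901 points and unevenness by -0.0693. With a 1 Mb window end to end contacts differed by 1.73 and ends near centromeres by 3.50 points. With a 3 Mb window pericentromere contacts differed by 0.313. Without thinning breadth differed by 3.28 points and fragments with 3 or more partners by -1.16. Without shoot cells 3 and 4 mean log10 separation differed by -0.554, and its groups came apart. So did those of the trans share of all contacts, at means of 14.0% in shoot cells and 27.1% in zygotes. The same held for far cis contacts at 2 Mb or more (40% and 61.7%) and fragments with 3 or more partners (2.75% and 11.8%). The cause of these changes was not tested. Leaving out 1 cell in turn gave 0.139 (without zygote 3) to 0.248 (without shoot cell 1) for alignment, 0.405 (without shoot cell 2) to 1.17 (without shoot cell 1) for pericentromere contacts, 1.76 to 2.48 points for breadth and -0.117 to -0.0887 for unevenness. No paired analysis was possible because no result comes from a test and the cell numbers only name cells. Few contacts limit the trans counts: end to end contacts numbered 28 in the shoot cells and 4 in the zygotes.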

Other observations

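Read pairs of far cis contacts did not split evenly by strand. Both ends lay on the same strand in 20.5, 63.2, 56.4 and 41.4% of them in shoot cells 1 to 4, against 57.0, 73.7 and 71.2% in zygotes 1 to 3. Among trans read pairs the share was 42.6, 51.1, 49.3 and 44.4% in the shoot cells and 46.0, 44.2 and 66.9% in the zygotes, with zygote 3 apart from the others. Many read pairs come from the same contact, so these shares weight amplified contacts.

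Coverage over the 379 bins of 1 Mb was more alike among zygotes than among shoot cells. The mean Spearman correlation was 0.0412 over 6 pairs of shoot cells, 0.106 over 12 pairs of a shoot cell and a zygote, and 0.218 over 3 pairs of zygotes. Pairs of cells share their members, and depth differs between cells, so these are descriptions.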
